A study of Mus musculus with 23 samples.

Results

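How near PLET1+ thymic epithelial cells (TECs) with forced Notch activity at E14.5 stayed to the state of younger cells was examined by comparing 5 libraries of E14.5 NICD cells with 3 libraries of E12.5 control cells. These are 8 of the 23 libraries in the series, chosen by their titles. Each library was made from 100 cells of fetal mouse thymus sorted for PLET1, a surface protein of early TECs, and was sequenced by Smart-seq2, which has no molecular identifiers. The NICD embryos carried Foxn1Cre, which acts in cells that express *Foxn1*, together with a *Rosa26* allele from which a floxed stop is removed to give the Notch intracellular domain (NICD) and EGFP. All 5 came from a single litter. The E12.5 controls, labelled wild type, were littermates of conditional *Rbpj* knockouts (cKO, Foxn1Cre with *Rbpj* FL alleles) in batches 1, 1 and 2, and the alleles each control carried are not given in the sources used here. The labels give C57BL/6 as the strain of both groups. E14.5 PLET1+ control cells of the *Rbpj* cross (3 libraries) are set beside them. The NICD libraries form batch 5 alone and were sorted in another laboratory, so age, genotype, litter, batch and laboratory cannot be told apart in NICD against E12.5.

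Notch receptors are cut on ligand binding, and the freed intracellular domain enters the nucleus, binds RBPJ and switches on targets such as the *Hes* and *Hey* repressors. Between these ages the transcription factor FOXN1 drives the fetal thymus primordium towards cortical (cTEC) and medullary (mTEC) fates: TECs begin to display MHC class II, make the cortical proteasome subunit PSMB11 and the Notch ligand DLL4, and medullary cells acquire the receptors RANK and CD40. Early progenitors express *Plet1* and pouch transcription factors, and the parathyroid arises from the same pouch.

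Assigned fragments numbered 24306115 to 65623103 per E12.5 control library and 63587152 to 92699969 per NICD library, and 16718 to 18587 and 17548 to 19194 genes had at least 1 count. Levels are given as CPM, counts divided by the TMM-scaled library size. Log2 fold changes, their standard errors (SE) and adjusted p are those of quasi-likelihood fits in edgeR, adjusted by Benjamini and Hochberg's method over 19140 genes, with a gene called at an adjusted p of at most 0.05. Both groups had the TEC markers *Epcam* (572 to 710 CPM in E12.5 control and 672 to 915 CPM in NICD), *Pax1* (148 to 341 and 295 to 351) and *Krt8* (938 to 1373 and 1366 to 1653). *Plet1* RNA ranged from 26.8 to 65.1 CPM in E12.5 control and from 12.4 to 60.8 CPM in NICD, and the defining haematopoietic gene *Ptprc* did not exceed 1.41 CPM in any library. The summed level of 10 T-lineage markers, *Ptprc* among them, was 8.37 to 30.8 CPM in E12.5 control and 16.7 to 59.2 CPM in NICD. Parathyroid markers stood apart: *Pth* was at 1216, 1492 and 8674 CPM in the E12.5 controls and at no more than 10.1 CPM in NICD. The E14.5 controls had 0.182, 377 and 0.214 CPM, so that 2 of these 3 were in the range of NICD and the other was not. The summed level of the 3 parathyroid markers was 1290 to 8800 CPM against 0.273 to 10.1 CPM. In such pooled samples, fewer cells of a type and less RNA per cell cannot be told apart. The summed level of 10 mesenchyme markers was 20.3 to 73.1 CPM in E12.5 control and 23.2 to 426 CPM in NICD, and their part in the results below was not tested.

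NICD and E12.5 control cells differed at 538 genes (2.81% of those tested), of which 314 (1.64%) were higher and 224 (1.17%) lower in NICD. The split was 574 higher and 926 lower with limma-voom, 275 and 280 without batch terms, and 249 and 76 when only the libraries compared were fitted. Without E12.5 control replicate 1, 2 or 3, 357, 342 and 316 genes were called. All 5 NICD libraries lay above all 3 E12.5 controls for 1078 genes (5.63%) and below them for 939 (4.91%). Between E14.5 and E12.5 control cells, which share the E12.5 libraries with this comparison, 185 genes were called (0.967%), 159 higher (0.831%) and 26 lower (0.136%), and between NICD and E14.5 control 131 genes (0.684%), 51 higher (0.266%) and 80 lower (0.418%). The comparison between the control ages gave 1 higher and 0 lower when only its own libraries were fitted. The last comparison, of NICD with E14.5 control, gave 14 higher and 3 lower when fitted in the same way. Its count was 42, 34 and 31 without E14.5 control replicate 1, 2 or 3 and 80 without NICD replicate 3. Comparisons with 5 NICD libraries and the one between controls, with 3 libraries per age, differ in power, so their counts are not on an equal footing. In log2 (CPM + 1) over the tested genes, the root mean square distance between a NICD and an E12.5 control library had a median of 1.56 (range 1.39 to 1.68, 15 pairs). Between NICD and E14.5 control libraries it was 1.39 (1.12 to 1.49, 15 pairs), among the NICD libraries 1.43 (1.33 to 1.53, 10 pairs) and between E12.5 and E14.5 controls 1.3 (1.26 to 1.36, 9 pairs). Within the E12.5 controls it was 1.28 (1.18 to 1.28, 3 pairs), near that between the control ages, and within the E14.5 controls 0.983 (0.65 to 1.02, 3 pairs). Distances of NICD to each other and to the E14.5 controls overlapped, and the median distance to the E12.5 controls was larger than either.

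To ask which changes of normal maturation had taken place, 200 protein-coding stage genes were taken from libraries outside the comparison, the PLET1+ cKO cells, as the 100 with the smallest p in each direction between E14.5 and E12.5. All 100 higher genes and 42 of the 100 lower ones were called in that contrast of the fit over all 23 libraries (p of the last member and of the next gene, 0.000387 and 0.000402 among higher genes and 0.00229 and 0.00243 among lower ones). That fit estimated the spread of each gene from NICD and E12.5 control libraries too, so the choice was not fully independent of them. With only the cKO libraries compared in the fit, 0 genes were called higher and 2 lower. These cells lack *Rbpj* function by design, which limits them as a measure of normal age. They also share the cross and the batches of the controls of their age, which NICD does not. Of the 100 genes that rose with age in cKO cells, 61 were called higher and 0 lower in NICD than in E12.5 control (median log2 fold change 2.94, against 0.169 over all genes tested). In E14.5 control the counts were 70 and 0, with a median of 3.57. Over all genes tested, 1.64% were called higher and 1.17% lower in NICD, and 0.831% and 0.136% in E14.5 control. Of the 100 genes lower with age, 20 were called lower and 2 higher in NICD (median -0.55). Without E12.5 control replicate 3, 10 were called lower, and without replicate 2, 12. In E14.5 control 14 were called lower and 0 higher (median -1.06). The NICD counts rest on 5 libraries and those of E14.5 control on 3, so they are not on an equal footing. By the medians, the fall was smaller in NICD. NICD cells differed from E14.5 control at 5 of the first set, all lower in NICD (*Gm4951*, *Laptm4a*, *Iigp1*, *Pitpnb* and *Lamp2*). Of the second set 8 differed, all higher in NICD, namely the Notch target *Hes1*, the collagen gene *Col4a1*, *Dsp*, *Hist3h2ba* and the chaperone genes *Hspa1a*, *Hspa1b*, *Hsph1* and *Hsp90aa1*.

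Expressed as a position on which the mean of the E12.5 cKO libraries is 0 and that of the E14.5 cKO libraries 1, the NICD libraries had 0.707, 0.760, 0.736, 0.747 and 0.757 (mean 0.741 ± 0.0212, SD, n = 5). The E12.5 controls had 0.0556 ± 0.0641 and the E14.5 controls 0.918 ± 0.0785 (SD, n = 3 each). All 5 NICD libraries lay between the groups and nearer to E14.5, the highest of them under the lowest E14.5 control at 0.868. The 2 sets of stage genes gave different positions. On genes higher with age NICD was at 0.917 ± 0.0363 and E14.5 control at 1.02 ± 0.0882, and on genes lower with age NICD was at 0.428 ± 0.0231 and E14.5 control at 0.733 ± 0.0728. Of the 100 lower genes only 42 were called in cKO cells. The lower set also holds *Hspa1a* and *Hspa1b*, called higher in NICD than in E12.5 control (log2 fold changes 4.37 and 6.21). Their part in the NICD position was not tested. These positions are a description without a test. The cKO libraries that set the scale share batches with the controls and not with NICD. Batch and laboratory therefore cannot be told apart from stage in the position of NICD.

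**Figure D1:**
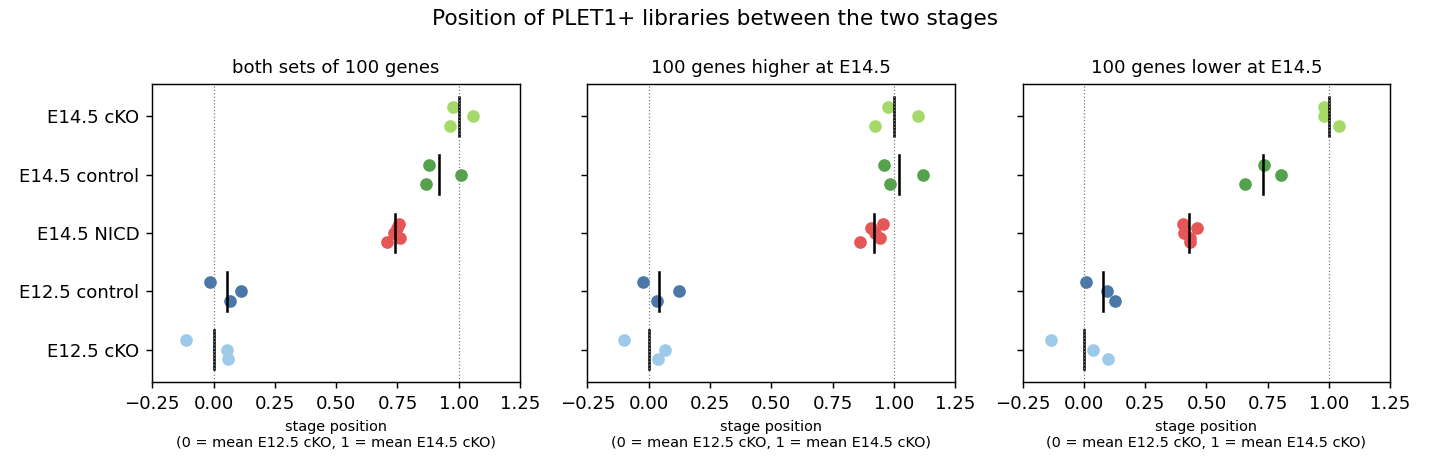
Position of each PLET1+ library (points, with the group mean as a bar) on stage axes made from all 200 stage genes, from the 100 higher and from the 100 lower at E14.5 in cKO cells. The horizontal axes have no unit and run from the mean of E12.5 cKO at 0 to that of E14.5 cKO at 1. The 5 NICD libraries sit at 0.861 to 0.954 on the higher genes and at 0.406 to 0.462 on the lower ones.

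Among the stage genes that changed most in NICD, *Msc*, *Madcam1*, *Fgl2*, *Gsdmd*, *Skint8* and *Tmem173* had no count in any E12.5 control library. *Msc*, encoding the transcriptional repressor musculin, was at 37.8, 24.04, 46.0, 30.9 and 50.6 CPM in NICD and at 15.8, 37.2 and 31.9 CPM in E14.5 control, at least 495-fold higher in NICD than 3 counts per E12.5 library would give (adjusted p = 5.68e-06). *Gsdmd*, the pore-forming gasdermin D, was at 19.8 to 42.4 CPM in NICD and was at least 397-fold higher by the same bound. *Skint8*, of a family that includes the *Skint1* selection gene of epidermal T cells, was at 37.6 to 66.8 CPM, at least 667-fold higher. All of these genes had levels at E14.5 in NICD that overlapped or exceeded those of the E14.5 controls, except *Tmem173* (10.6 to 29.4 CPM against 30.9 to 41.7 CPM), and none was called between those groups.

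The stage genes that rose with age in cKO cells but moved least in NICD were *Fkbp1a*, *H2afy2*, *Anxa7*, *Pitpnb*, *Lamp2* and *Cpsf3*. *Lamp2*, a lysosomal membrane protein needed for autophagy, was at 622, 541 and 328 CPM in E12.5 control, at 301, 323, 344, 444 and 558 CPM in NICD and at 1139, 918 and 940 CPM in E14.5 control. NICD overlapped the younger cells (log2 fold change -0.29 ± 0.22, SE, adjusted p = 0.546) and was lower than E14.5 control (adjusted p = 0.00603). *Pitpnb*, a phosphatidylinositol transfer protein, was at 155 CPM in E12.5 control, 136 CPM in NICD and 340 CPM in E14.5 control on average, and was also lower in NICD than in E14.5 control (adjusted p = 0.0281). Of the genes lower with age, *Znhit6*, *Zfp503*, *Pbrm1*, *N4bp2*, *Pias2* and *Lamc1* had log2 fold changes between -0.05 and 0.05 in NICD against E12.5 control. *Pbrm1*, a chromatin remodelling subunit, was at 282 to 302 CPM in E12.5 control and at 185 to 423 CPM in NICD, and at 138 to 157 CPM in E14.5 control. None of these 6 was called between NICD and either control group. The largest changes among the genes lower with age were those of *Id2*, *Flrt2*, *Akap5*, *Hspa1a*, *Hspa1b* and *Spp1*. *Flrt2*, a membrane adhesion protein, averaged 95.7 CPM in E12.5 control, 11.6 CPM in NICD and 11.9 CPM in E14.5 control (adjusted p = 0.0104, and 0.107 without E12.5 control replicate 3). *Akap5*, a kinase anchor, was at 3.99 to 20.1 CPM in E12.5 control and 0.314 to 3.87 CPM in NICD, which did not pass the test (adjusted p = 0.16).

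Of 7 genes of MHC class II presentation to T cells, 3 were higher in NICD than in E12.5 control, 0 lower (median log2 fold change 2.63), and 0 were called against E14.5 control. Over all genes tested, 1.64% were called higher and 1.17% lower than in E12.5 control, with a median of 0.169. *H2-Eb1* was at 20.0, 13.1 and 24.4 CPM in E12.5 control, at 258, 187, 258, 346 and 360 CPM in NICD and at 290, 297 and 161 CPM in E14.5 control. The NICD libraries all exceeded the E12.5 controls and overlapped the E14.5 controls, with log2 fold changes of 3.83 ± 0.44 (SE, adjusted p = 6.93e-05) and 0.21 (adjusted p = 0.872). *H2-Ab1* rose from between 196 and 588 CPM to between 1716 and 2768 CPM (log2 fold change 2.40, adjusted p = 0.000404). *Cd74*, the invariant chain, rose from between 48.7 and 214 CPM to between 1087 and 2842 CPM (log2 fold change 4.08, adjusted p = 0.00116). The other 4 members, *H2-Aa*, *H2-DMa*, *H2-DMb1* and the transactivator *Ciita*, were not called. Of 12 MHC class I and immunoproteasome genes, 7 were called higher and 0 lower (median log2 fold change 4.01), and the same counts were 7 and 0 in E14.5 control against E12.5 control. Between the control ages the shares over all genes were 0.831% higher and 0.136% lower. *B2m*, the light chain of class I molecules, was at 117, 122 and 243 CPM in E12.5 control and at 504, 729, 526, 655 and 786 CPM in NICD, with 515 to 816 CPM in E14.5 control (log2 fold change 2.08 ± 0.31, SE, adjusted p = 0.000773). *H2-K1* and *H2-D1*, the class I heavy chains, *Tap1*, a peptide transporter subunit, and the immunoproteasome genes *Psmb8*, *Psmb9* and *Psmb10* made up the other called members. The class I genes are closely related in sequence, so reads could be split among them, and their values are uncertain in that respect. *Psmb8* had no count in the E12.5 controls and was at 9.79 to 12.4 CPM in 3 NICD libraries and under 0.1 CPM in the other 2. The calls of *Psmb8* and *Psmb10* were lost without any 1 of the E12.5 controls (adjusted p up to 0.0744 and 0.12) and that of *Psmb9* without replicate 3 (adjusted p = 0.102). *Psmb10* was also lost without NICD replicate 2 or 4. None of the 19 MHC and immunoproteasome genes was called between NICD and E14.5 control, beside 0.684% of all genes tested.

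The 200 bases before the RefSeq start sites (GRCm38.p6) of *H2-Eb1* and *B2m*, which stand for the class II and class I genes that rose, are shown with matches in capitals to the CCAAT box (CCAAT or ATTGG) and, in *B2m*, to the core of an interferon-stimulated element (GAAA, any 2 bases and GAAA, or its reverse complement). The matches do not overlap, and both strands were searched. Of 32851 such windows, 29.3% held the first and 2.27% the second. The *H2-Eb1* window is chr17:34305667-34305866 on the + strand and that of *B2m* chr2:122147487-122147686 on the + strand, both 5' to 3'. A match is a description of the letters only.
H2-Eb1: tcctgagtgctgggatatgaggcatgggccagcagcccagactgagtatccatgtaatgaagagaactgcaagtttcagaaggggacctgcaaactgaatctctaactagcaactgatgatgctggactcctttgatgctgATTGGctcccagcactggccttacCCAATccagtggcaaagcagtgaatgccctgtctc
B2m: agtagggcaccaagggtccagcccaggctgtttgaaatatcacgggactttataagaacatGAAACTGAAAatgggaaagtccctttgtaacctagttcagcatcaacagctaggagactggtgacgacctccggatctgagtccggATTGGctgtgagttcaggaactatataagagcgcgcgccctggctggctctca

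Of 14 tested genes of the mTEC programme 1 was called higher and 0 lower, beside 1.64% higher and 1.17% lower over all genes tested. Their median log2 fold change was 6.98, or 3.15 with the 6 genes at 0 in a group set at their bounds. The summed level of all 16 mTEC members was 35.4 to 84.7 CPM in E12.5 control, 157 to 261 CPM in NICD and 148 to 242 CPM in E14.5 control. Of 15 genes in the cTEC and FOXN1 list 2 were called higher and 0 lower (median log2 fold change 0.34, against 0.169 over all genes). *Cd40*, the TNF-family receptor of TECs, was at 0.166, 0 and 0 CPM in E12.5 control and at 64.6, 33.2, 202, 61.7 and 77.1 CPM in NICD (adjusted p = 0.00025). *Tnfrsf11a*, which encodes RANK, was at 0, 0 and 5.31 CPM and at 13.6, 18.1, 30.4, 17.5 and 41.3 CPM (adjusted p = 0.00339), a call lost without batch terms and with a replicate block (adjusted p up to 0.396). For both genes the NICD libraries lay above all E12.5 controls, and neither gene was called against E14.5 control, where *Cd40* was at 19.4 to 51.6 CPM and *Tnfrsf11a* at 6.98 to 15.1 CPM. *Tnfrsf11a* was the called mTEC gene. The later mTEC regulator *Aire* was at 3.28 CPM in 1 NICD library and at no more than 0.0276 CPM in the other 4. The called members of the cTEC and FOXN1 list were *Cd40*, which medullary cells also express, and *Tbata*, a gene of thymic stroma. *Tbata* was at 35.7 to 160 CPM in E12.5 control, 227 to 1078 CPM in NICD and 61.6 to 424 CPM in E14.5 control (adjusted p = 0.0446 against E12.5 control). *Tbata* was not called in 5 of the 8 fits that left out 1 library, E12.5 control 1 or 3 or NICD 2, 3 or 5. *Foxn1* itself was at 37.3, 19.8 and 41.8 CPM in E12.5 control, at 16.4, 44.6, 30.8, 76.6 and 38.2 CPM in NICD and at 84.7, 206 and 142 CPM in E14.5 control. NICD overlapped E12.5 control (log2 fold change 0.34 ± 0.63, SE, adjusted p = 0.878), and the highest NICD library lay under the lowest E14.5 control, a difference that did not pass the test (log2 fold change -1.83, adjusted p = 0.162). *Psmb11*, the cortical proteasome subunit, was at 132.7, 87.8 and 72.9 CPM in E12.5 control, 99.8, 215, 121, 171 and 208 CPM in NICD and 404, 490 and 386 CPM in E14.5 control. It was called between the control ages (adjusted p = 0.0141) and not between NICD and E12.5 control (log2 fold change 0.71 ± 0.36, SE, adjusted p = 0.316) or NICD and E14.5 control (adjusted p = 0.0729). *Prss16*, the thymus-specific serine protease, and *Cxcl12*, a chemokine, had the same order of means (350, 523 and 913 CPM for *Prss16*), without a call in NICD against either group.

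**Figure D2:**
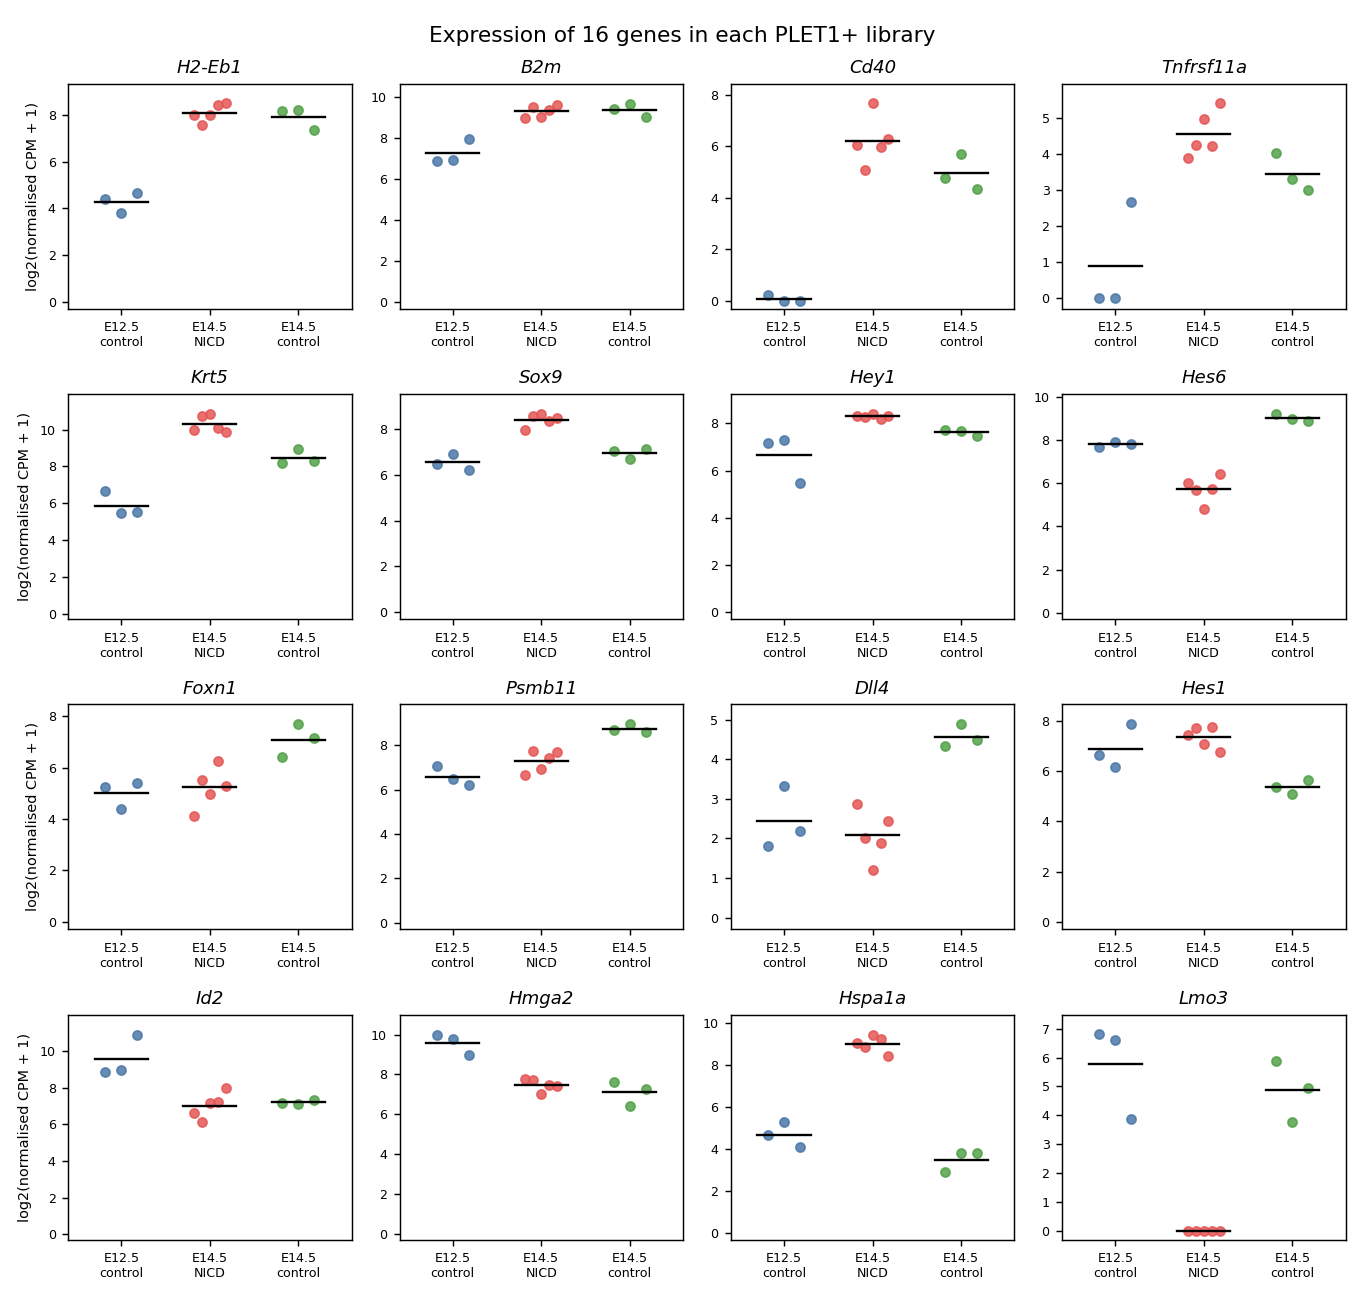
Levels of 16 genes as log2 (normalised CPM + 1) on the vertical axes, each point a library and each bar the mean of the 3 E12.5 control, 5 NICD or 3 E14.5 control libraries. *H2-Eb1* and *B2m* in NICD overlap E14.5 control, *Foxn1* overlaps E12.5 control, and *Hes6*, *Hspa1a* and *Lmo3* lie outside both.

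In the Notch pathway, 0 of 9 receptors and ligands passed the test, beside 1.64% higher and 1.17% lower over all genes tested. *Notch1* was at 3.83, 7.51 and 12.03 CPM in E12.5 control and at 87.0, 37.5, 35.5, 42.7 and 30.4 CPM in NICD, without overlap (adjusted p = 0.247). These counts cannot tell RNA of the gene from any RNA of the transgene that matches it. The ligand gene *Jag1* was at 815, 946 and 379 CPM in E12.5 control and at 484, 736, 979, 761 and 776 CPM in NICD, overlapping (adjusted p = 1), and averaged 223 CPM in E14.5 control. *Dll4*, a FOXN1 target that instructs T-cell fate, was at 2.496, 9.06 and 3.54 CPM in E12.5 control and 6.33, 3.04, 1.31, 2.69 and 4.44 CPM in NICD, and at 19.2 to 28.7 CPM in E14.5 control, with no call among these groups (adjusted p = 0.742 in NICD against E12.5 control and 0.0847 against E14.5 control). Of 20 targets and modulators (median log2 fold change 0.41, against 0.169 over all genes), 1 was called, *Hey1*, a transcriptional repressor. It was at 145, 156 and 43.9 CPM in E12.5 control and at 319, 306, 339, 288 and 322 CPM in NICD (log2 fold change 1.64 ± 0.29, SE, adjusted p = 0.00323), without overlap, and was not called without E12.5 control replicate 3 (adjusted p = 0.0789). *Hes1* was at 97.8, 70.4 and 232 CPM in E12.5 control, on both sides of the 108 to 214 CPM of NICD (adjusted p = 0.536), while NICD exceeded the 33.3 to 49.6 CPM of E14.5 control (log2 fold change 2.04, adjusted p = 0.0145). Of 5 tested genes of lateral inhibition and neuroendocrine cells, 2 were called lower and 0 higher, beside 1.17% and 1.64% of all genes tested. *Hes6*, an antagonist of HES1, was at 203, 239 and 228 CPM in E12.5 control, 63.6, 50.9, 27.3, 52.4 and 84.4 CPM in NICD and 599, 510 and 482 CPM in E14.5 control. NICD lay below both, with log2 fold changes of -2.09 ± 0.40 (SE, adjusted p = 0.00639) and -3.27 (adjusted p = 0.000298). *Chga*, the secretory granule protein chromogranin A, was at 112, 70.5 and 291 CPM in E12.5 control and at 0 in all NICD libraries, at least 3750-fold lower against 3 counts per library (adjusted p = 0.0106). In E14.5 control it was at 0.0364, 11.7 and 0 CPM. *Chga* is also made by parathyroid cells, whose markers were high in the same libraries, and the part they play in its difference was not tested.

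Of 18 progenitor and epithelial surface genes, 4 were called higher in NICD than in E12.5 control and 0 lower, beside 1.64% and 1.17% of all genes tested. Between the control ages 0 were called, beside 0.967% of all genes. *Krt5*, a basal and medullary keratin, was at 99.0, 43.4 and 44.3 CPM in E12.5 control, at 1002, 1692, 1852, 1111 and 928 CPM in NICD and at 291, 494 and 312 CPM in E14.5 control. All NICD libraries lay above both groups, and the difference passed the test against E12.5 control (log2 fold change 4.41 ± 0.68, SE, adjusted p = 0.0012) and not against E14.5 control (log2 fold change 1.86, adjusted p = 0.145). *Sox9*, a progenitor transcription factor, was at 89.3, 120 and 73.4 CPM in E12.5 control and at 251, 380, 406, 326 and 363 CPM in NICD (log2 fold change 1.78 ± 0.39, SE, adjusted p = 0.0179), with 102 to 138 CPM in E14.5 control. None of the 18 genes, *Sox9* included, was called between NICD and E14.5 control. *Itgb4*, an integrin of hemidesmosomes, and *Krt18* were the other called members, and *Egfr*, the EGF receptor, was called higher in the growth factor list (log2 fold change 1.73, adjusted p = 0.0421). The calls of *Itgb4*, *Krt18* and *Egfr* were lost in 7, 7 and 9 of 17 alternative analyses, among them each fit without E12.5 control replicate 1 or 3 (adjusted p up to 0.157, 0.0632 and 0.169). The call of *Sox9* was lost without E12.5 control replicate 1 (adjusted p = 0.0942).

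Genes called lower in NICD numbered 2 of 25 in the growth factor list, where 1 was higher, 1 of 10 in the fetal timing list and 1 of 14 in the pouch list, beside 1.17% lower and 1.64% higher over all genes tested. *Id2*, an inhibitor of basic helix-loop-helix factors, was at 464, 505 and 1912 CPM in E12.5 control, at 98.8, 69.3, 142, 150 and 251 CPM in NICD and at 137 to 160 CPM in E14.5 control (log2 fold change -2.47 ± 0.35, SE, adjusted p = 0.000608). *Id1* fell by 2.42 on the log2 scale (adjusted p = 0.0236). E12.5 control replicate 3 was highest for both, and without it *Id1* was not called (adjusted p = 0.16) and *Id2* fell by 1.72 on the log2 scale (adjusted p = 0.0188). *Hmga2*, a chromatin protein of fetal stem and progenitor cells, was at 1019, 865 and 500 CPM and at 221, 207, 127, 178 and 173 CPM (log2 fold change -2.11 ± 0.43, SE, adjusted p = 0.0105), against 83.5 to 196 CPM in E14.5 control. Its call was lost without E12.5 control replicate 1 (adjusted p = 0.0577). *Gata3*, the called pouch transcription factor, differed too (53.0, 43.9 and 79.3 CPM against 2.87 to 14.6 CPM, adjusted p = 0.0384), with 4.29 to 13.5 CPM in E14.5 control. *Gata3* also acts in the parathyroid, as does *Gcm2*, the parathyroid determinant, which was at 62.3, 5.07 and 63.8 CPM in E12.5 control and at or under 0.0458 CPM in NICD (adjusted p = 0.0261). In E14.5 control *Gcm2* was at 0, 8.79 and 0 CPM. The parathyroid markers were highest in E12.5 control replicate 3 and their part in these differences was not tested. Without any 1 of the 8 libraries *Gata3* lost its call (adjusted p up to 0.14). *Gcm2* did so in 7 of the 8 such fits, all but that without E12.5 control replicate 2. Of 23 cell cycle genes, the inhibitor *Cdkn1c* was the called gene, lower in NICD (45.98 to 60.4 CPM against 10.03 to 28.2 CPM, with 9.69 to 15.5 CPM in E14.5 control, adjusted p = 0.0466, lost in 7 of 8 fits without 1 library, all but that without NICD replicate 2). The proliferation gene *Mki67* was at 146 to 287 CPM and 203 to 313 CPM, with 125 to 201 CPM in E14.5 control (log2 fold change 0.23, adjusted p = 0.705).

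**Figure D3:**
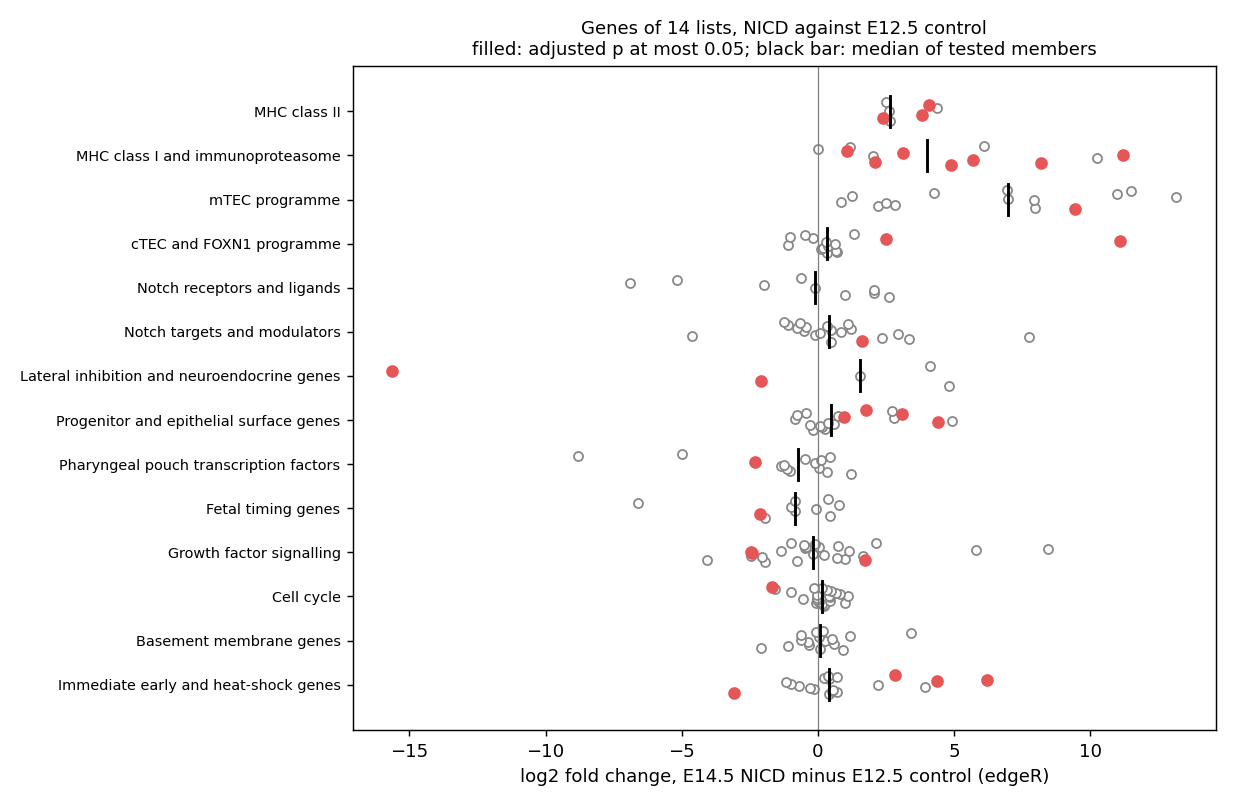
Log2 fold changes of NICD against E12.5 control (horizontal axis, edgeR) for the tested genes of 14 lists. Filled points passed an adjusted p of 0.05, open points did not, and the black bar is the median of the tested members. The MHC lists have medians of 2.63 and 4.01, and the cell cycle list 0.159 beside 0.169 over all genes tested.

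Some genes set NICD apart from both control ages. The heat-shock chaperone genes *Hspa1a* and *Hspa1b* were at 16.1 to 37.9 CPM and 4.89 to 11.1 CPM in E12.5 control and at 340 to 693 CPM and 206 to 888 CPM in NICD. In E14.5 control they were at 6.44 to 13.2 CPM and 2.75 to 5.13 CPM, and both were among the stage genes lower at E14.5 in cKO cells. Log2 fold changes against E12.5 control were 4.37 ± 0.48 (SE, adjusted p = 3.59e-05) for *Hspa1a* and 6.21 ± 0.83 (SE, adjusted p = 0.00033) for *Hspa1b*, and both were higher than in E14.5 control too (adjusted p = 8.01e-06 and 0.000256). *Dnajb1*, their co-chaperone, was at 119 to 225 CPM and at 614 to 1764 CPM, with 235 to 542 CPM in E14.5 control (log2 fold change 2.84 and adjusted p = 0.00119 against E12.5 control). It was not called between NICD and E14.5 control. In this list 3 of the 19 tested stress genes were called higher and 1 lower than in E12.5 control, beside 1.64% and 1.17% of all genes tested. The immediate early gene *Fosb* fell from between 114 and 217 CPM to between 6.95 and 29.9 CPM, with 104 to 158 CPM in E14.5 control (log2 fold change -3.09, adjusted p = 0.00025). The 2 *Hspa1* genes are near-identical copies, which is visible in the 200 bases before their starts on the - strand, chr17:34972157-34972356 and chr17:34959239-34959438, 199 of which are the same. Reads shared between them could have been split or lost, so their separate values are uncertain. Capitals mark a match to 2 units of the heat-shock element (GAANNTTC, its own reverse complement, in 5.36% of all windows) and a CCAAT box, which do not overlap.
Hspa1a: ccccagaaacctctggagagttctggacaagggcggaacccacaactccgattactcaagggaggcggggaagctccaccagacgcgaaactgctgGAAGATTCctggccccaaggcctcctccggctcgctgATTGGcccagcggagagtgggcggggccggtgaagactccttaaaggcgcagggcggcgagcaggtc
Hspa1b: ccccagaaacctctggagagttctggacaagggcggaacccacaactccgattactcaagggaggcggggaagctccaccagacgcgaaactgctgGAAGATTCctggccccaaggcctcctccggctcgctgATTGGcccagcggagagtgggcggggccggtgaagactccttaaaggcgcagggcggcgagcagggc

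Among called genes with at least 10 CPM and no overlap of the groups, the 12 that rose with the strongest evidence were *Tmem176b*, *Msc*, *Alad*, *Il15ra*, *Clstn1*, *Xaf1*, *Gstm2*, *Gsdmd*, *Tst*, *Madcam1*, *Lpo* and *Fgl2*. *Tmem176b*, a membrane protein of antigen-presenting cells, was at 127, 154 and 144 CPM in E12.5 control and at 816, 908, 829, 974 and 1072 CPM in NICD (log2 fold change 2.70 ± 0.20, SE, adjusted p = 4.29e-07). It overlaps *Tmem176a* on the other strand, which was called higher too, and counts without strand cannot separate such pairs. *Il15ra*, the receptor that presents IL-15, was at no more than 0.0371 CPM in E12.5 control and at 65.2 to 273 CPM in NICD, with 35.5 to 95.9 CPM in E14.5 control (adjusted p = 1.43e-05 against E12.5 control). *Alad*, an enzyme of haem synthesis, was at 91.5 to 110 CPM in E12.5 control, 413 to 663 CPM in NICD and 125 to 177 CPM in E14.5 control, and NICD was higher than both (adjusted p = 5.68e-06 and 0.00021). *Tst*, the mitochondrial sulphurtransferase rhodanese, was at 101 to 180 CPM in NICD, between the 13.0 to 26.3 CPM of E12.5 and the 269 to 332 CPM of E14.5 control.

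The 12 that fell were *Lmo3*, *mt-Nd3*, *Hint1*, *Ispd*, *Fosb*, *Diras2*, *Id2*, *Col9a1*, *Dnajb4*, *Ints6l*, *Spp1* and *Zfp938*. *Lmo3*, a LIM-domain transcriptional cofactor, was at 110, 96.2 and 13.8 CPM in E12.5 control, at 0 in 4 NICD libraries and 0.0126 CPM in the fifth, and at 58.0, 12.8 and 29.6 CPM in E14.5 control (adjusted p = 2.32e-07 and 4.15e-07 for NICD against the 2 ages). The mitochondrial complex I gene *mt-Nd3* was at 9.94, 14.9 and 82.0 CPM, at 0.0504 to 0.191 CPM in NICD and at 37.6 to 53.6 CPM in E14.5 control (adjusted p = 2.96e-06 and 1.43e-06). In contrast, 0 of the 12 other mitochondrial protein-coding genes was called against E12.5 control (log2 fold changes -1.14 to 0.103). *Spp1*, osteopontin, was at 28.4, 497 and 1590 CPM in E12.5 control and at 0 in every NICD library, at least 16800-fold lower (adjusted p = 0.00122). It did not exceed 0.0237 CPM in E14.5 control. *Hint1*, a nucleotide hydrolase, was at 216 to 453 CPM, 39.5 to 95.2 CPM in NICD and 149 to 184 CPM in E14.5 control. Fold changes of genes without a count in one group are bounds, and 52 of the 314 higher and 49 of the 224 lower genes were of this kind.

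**Figure D4:**
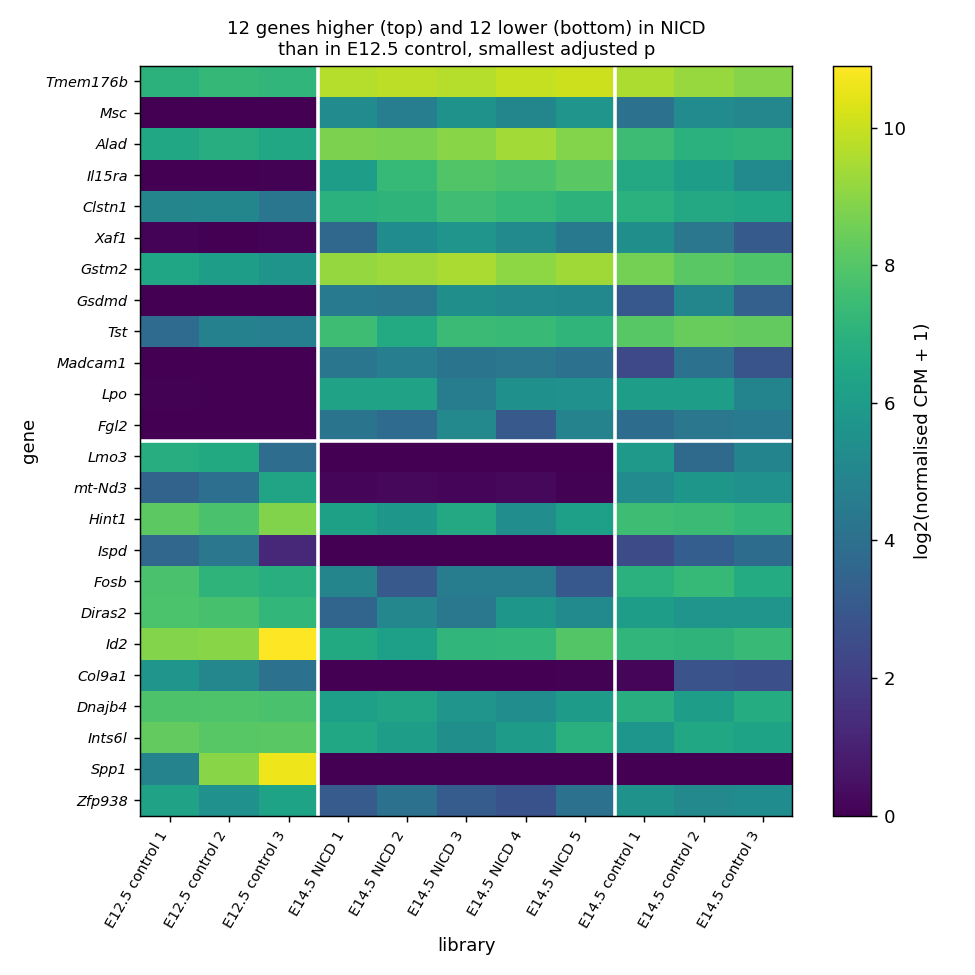
Levels, as log2 (normalised CPM + 1) in colour, of the 12 higher and 12 lower genes with the strongest evidence between NICD and E12.5 control (rows) in each of 11 libraries (columns). *Lmo3*, *mt-Nd3* and *Ispd* are darkest (near 0) in the 5 NICD libraries, and *Spp1* is near 0 in NICD and E14.5 control alike.

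*Gt(ROSA)26Sor*, the transcript of the locus that carries the NICD allele, was at 299, 214 and 360 CPM in E12.5 control, at 58.0, 124, 100.3, 58.8 and 61.4 CPM in NICD and at 125 to 241 CPM in E14.5 control, and was lower in NICD than in E12.5 control (log2 fold change -1.84 ± 0.35, SE, adjusted p = 0.00604). This gene, *Notch1*, *Heyl*, *Lum*, *Tmem176a* and the stage genes named for their difference from E14.5 control were added after their values were seen. The mesenchymal collagen gene *Col3a1* had no count in E12.5 control and was at 92.8, 99.2, 57.8 and 65.8 CPM in 4 NICD libraries and 0.138 CPM in replicate 3, with at most 0.272 CPM in E14.5 control. Its call (adjusted p = 0.0442) was lost in 10 of 17 alternative analyses, all 3 that left out an E12.5 control and 4 that left out a NICD library other than replicate 3 among them. *Lum*, another mesenchyme marker, had 86.0, 14.2, 0.193, 180 and 119 CPM in the same libraries (adjusted p = 0.0702) and at most 13.9 CPM in E14.5 control. Among other markers, *Twist2* and the globin gene *Hba-a2* were called lower, from at most 8.94 and 5.86 CPM to 0, and the call of *Hba-a2* was lost in each fit that left out 1 library (adjusted p up to 0.0881). That of *Twist2* was lost with a replicate block and when only the libraries compared were fitted (adjusted p up to 0.0878).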

How the data were processed

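RNA-seq counts of 23 libraries of 100 sorted TECs were used. Per the labels and file header, the authors trimmed 75 bp read pairs in Trimmomatic 0.32, used STAR 2.5.1a for alignment to GRCm38.p5 and counted fragments over GENCODE vM12 exons without strand, with featureCounts (1.5.1 in the labels, 1.5.0-p3 in the header). The deposited counts cover 50123 genes and are not normalised. Names, for 98.4% of them, came from the gene table given with the data and promoters from RefSeq, where *Hspa1a*, *Hspa1b*, *H2-Eb1* and *B2m* matched.

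Counts were scaled by TMM and fitted with edgeR 4.0.16 (R 4.3.3), after filterByExpr, to 7 group means and 2 batch terms, 1 within E12.5 and 1 within the E14.5 *Rbpj* cross, over all 23 libraries. P-values are two-sided and cover the spread between libraries of sorted cells. NICD libraries come from separate embryos of 1 litter, and whether each control is 1 embryo is not given in the sources used here. The members and gene lists were chosen with earlier results of these data known. Genes named are called list members and those that define a list, the 12 smallest adjusted p per direction (at least 10 CPM, no overlap, predicted genes and pseudogenes left out) and the 6 largest and 6 smallest changes of each stage set. Stage positions used a pseudocount of 1. Alternatives were DESeq2 1.42.0, limma-voom 3.58.1 (a method the authors used), another scaling, filters, batch designs, thinning and leaving out libraries. A further planned scaling is not reported here. Depth allowed 3 counts to be worth 0.0378 to 0.125 CPM in the 8 libraries.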

Additional observations from a re-analysis of the deposited data

Results flagged for a closer look

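In the 5 NICD libraries, 12 of 95 values had a highest or lowest library far from the others, with the gap over the whole range (in log2 (CPM + 1)) above 0.71, the 95% critical value for 5 samples. Chance flags about 1 in 20 such groups. For *Notch2* the ratio was 0.891, with replicate 1 at 240 CPM and the others at 750 to 862 CPM. For *Col3a1* it was 0.881, with replicate 3 at 0.138 CPM. For *Krt8* (0.731, replicate 1 at 1370 CPM) and *Ccl25* (0.714, replicate 1 at 842 CPM) the lowest library was again replicate 1, and for *Akap5* (0.846) and *Aire* (0.981) replicate 1 was the highest, at 3.87 and 3.28 CPM. Replicate 2 stood apart for *Gata3* (0.78, 2.87 CPM, the lowest) and *Pth* (0.99, 10.1 CPM, the highest). The ratios of *Gcm2* (1), *Lmo3* (1), *Ispd* (1) and *Col9a1* (0.724) rest on libraries at or near 0, none above 0.0504 CPM.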

How the results depend on the processing

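The number of genes called was 538, 185, 131 and 150 for NICD against E12.5 control, E14.5 against E12.5 control, NICD against E14.5 control and E14.5 against E12.5 cKO. In that order it was 2285, 1291, 1236 and 1099 with DESeq2, and 1129, 519, 677 and 393 with no filter on low counts. With limma-voom the first 3 were 1500, 448 and 998. When only the libraries compared were fitted the numbers were 325, 1, 17 and 2. The median log2 fold change of all genes in NICD against E12.5 control was 0.169 and moved to -0.176 with limma-voom. Without batch terms the fourth was 95. Leaving out 1 library at a time gave 316 to 561, 95 to 141, 31 to 172 and 64 to 123. The lowest of the first was without E12.5 control replicate 3 (357 without replicate 1 and 342 without replicate 2), that of the second without E14.5 control replicate 2, that of the third without E14.5 control replicate 3 and that of the fourth without E12.5 cKO replicate 3. Of the stage genes lower with age, 33 were called lower in NICD with DESeq2, 35 with limma-voom and 10 to 18 without 1 library, both alternatives added after seeing the data. The mean stage position of NICD was 0.773 with a pseudocount of 0.1 and 0.79 with 50 genes in each direction. With the replicate number as a block, 387 genes were called in the first comparison, 79 in the third and 89 in the fourth, and 17 of 59 named calls were lost. The numbers do not pair E12.5 control with NICD libraries, since these differ in age, cross and batch. Deviations of same-numbered libraries of the 2 groups had correlations of -0.00548, -0.0096 and 0.0461 over 3386 genes. Whether the numbers pair libraries within the *Rbpj* cross was not tested. None of the 59 called genes among the 94 named changed sign under any of the up to 17 alternatives that gave it a value, whereas 15 genes not called had fold changes of both signs. The 59 calls lost 0 with DESeq2, 3 with limma-voom and 5 to 15 without 1 library. Genes below 0.0378 to 0.125 CPM rest on 3 counts or fewer, so absence could not be shown at this depth. The cause of these changes was not tested.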
